A study of Danio rerio with 18 samples.

Results

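The DNA replication and mitosis genes described here are 52 genes chosen by symbol from the 31901 genes of the count table, from the loading of replication origins to the separation of chromosomes. They have 53 Ensembl identifiers, because rrm2 is the symbol of a locus on chromosome 19 and of a locus on chromosome 20. RNA was sequenced from whole zebrafish of the kif7co63 line, a model of idiopathic scoliosis in which some homozygous juveniles develop spinal curvature. Kif7 is a kinesin of the primary cilium that acts in Sonic hedgehog signaling. At 6 wpf (weeks post fertilization) a library was made from 1 fish, and 3 fish each were scoliotic kif7co63/co63, non-scoliotic kif7co63/co63, kif7co63/+ and wild type of the AB strain. At 4 dpf (days post fertilization) a library was made from a pool of 20 embryos, and 2 pools each were kif7co63/co63, kif7co63/+ and AB. The allele is a small in-frame deletion and insertion made with CRISPR-Cas9, carried by descendants of injected founders crossed to AB, and a single such line was used. The paper describes homozygotes bred by in-crossing homozygous parents. The parents of the sequenced fish were not given in the sources used here, so genotype and cross cannot be told apart. Whole animals were lysed, and the sex of the fish was not given in the sources used here.

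A dividing cell copies its DNA once. The origin recognition complex, Cdc6 and Cdt1 load the Mcm ring onto origins, geminin blocks reloading, and Cdc45 and the GINS complex turn the ring into an active helicase for the polymerases and their clamp PCNA. Cyclins with their kinases drive the transitions, and Aurora kinases, the Bub1 and Ttk checkpoint, condensin and spindle proteins then part the chromosomes. In whole juveniles these transcripts come from every tissue with dividing cells, and oocytes store several of them, B cyclins among them, for the first divisions of the embryo. In such bulk RNA, fewer cells of a type and less RNA per cell cannot be told apart.

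Library totals ran from 44503110 to 69698533 counts on genes, and levels are given as CPM (counts divided by TMM-scaled library size, over the 18 libraries). Groups were compared with edgeR's quasi-likelihood test on the counts of all genes, and a gene was called at a Benjamini-Hochberg adjusted p under 0.05 over all genes tested. The targeted gene kif7 had 27.0 ± 1.55 CPM in scoliotic, 27.4 ± 2.2 in non-scoliotic and 26.8 ± 4.82 in kif7co63/+ fish, against 44.1 ± 3.25 in AB fish (SD, n = 3 each), and it fell in each comparison with AB (adjusted p of 0.000871, 0.00141 and 0.00548). It had 16.1 ± 7.59 CPM in kif7co63/co63 and 15.2 ± 0.556 in kif7co63/+ pools, against 14.1 ± 1.60 in AB pools (SD, n = 2 each), so at 4 dpf its level did not separate the genotypes. The pair of kif7co63/co63 pools differed by a chi-square of 479 per gene, against 29.9 in kif7co63/+ and 56.1 in AB pools.

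Oocyte markers differed sharply among the 6 wpf fish and are given here beside the members. Their part in the results below was not tested. The CPM of 19 such markers, zona pellucida genes, gdf9, zar1 and buc among them, summed to 759, 3.50 and 62.2 in scoliotic and 1776, 3.55 and 348 in non-scoliotic fish. The sums were 5315, 4019 and 7105 in kif7co63/+ and 7312, 7671 and 8176 in AB fish, and 4.99 to 9.30 in the 6 embryo pools. In fish 2 of the scoliotic and of the non-scoliotic group, 7 and 11 of the 19 markers were at 0 reads, gdf9, cth1, zp2.1, zp2.3 and zp2.5 in both, and these counts include btg4, which had no read in any library. Of 18 oocyte markers tested, 10 were called lower in scoliotic, 3 in non-scoliotic and 8 in kif7co63/+ fish than in AB, and none higher. Over all genes tested, 23.0%, 21.9% and 17.6% were called lower and 19.2%, 21.2% and 18.6% higher in these comparisons. The count of lower markers in non-scoliotic fish thus did not exceed the share over all genes. A list of 18 germ cell and meiosis identifiers, ddx4 and dazl among them, summed to 13.4 to 135 CPM in scoliotic, 11.0 to 261 in non-scoliotic, 410 to 753 in kif7co63/+ and 889 to 947 in AB fish.

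Over all members, the mean of log2(CPM + 1) was 4.74 ± 0.11 in scoliotic, 4.63 ± 0.20 in non-scoliotic and 4.91 ± 0.31 in kif7co63/+ fish, against 5.71 ± 0.04 in AB fish (SD, n = 3 each). At 4 dpf it was 3.65 ± 0.37 in kif7co63/co63 and 3.65 ± 0.05 in kif7co63/+ pools, against 4.02 ± 0.02 in AB pools (SD, n = 2 each). The AB fish were thus the highest group, and the fish of the other groups at 6 wpf overlapped each other. Of the 53 identifiers, 51 passed the filter on low counts at 6 wpf and 50 at 4 dpf. The kinase gene plk1 stayed at or below 0.268 CPM in every library, the separase gene espl1 had no read in any, and neither was tested.

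**Figure D1:**
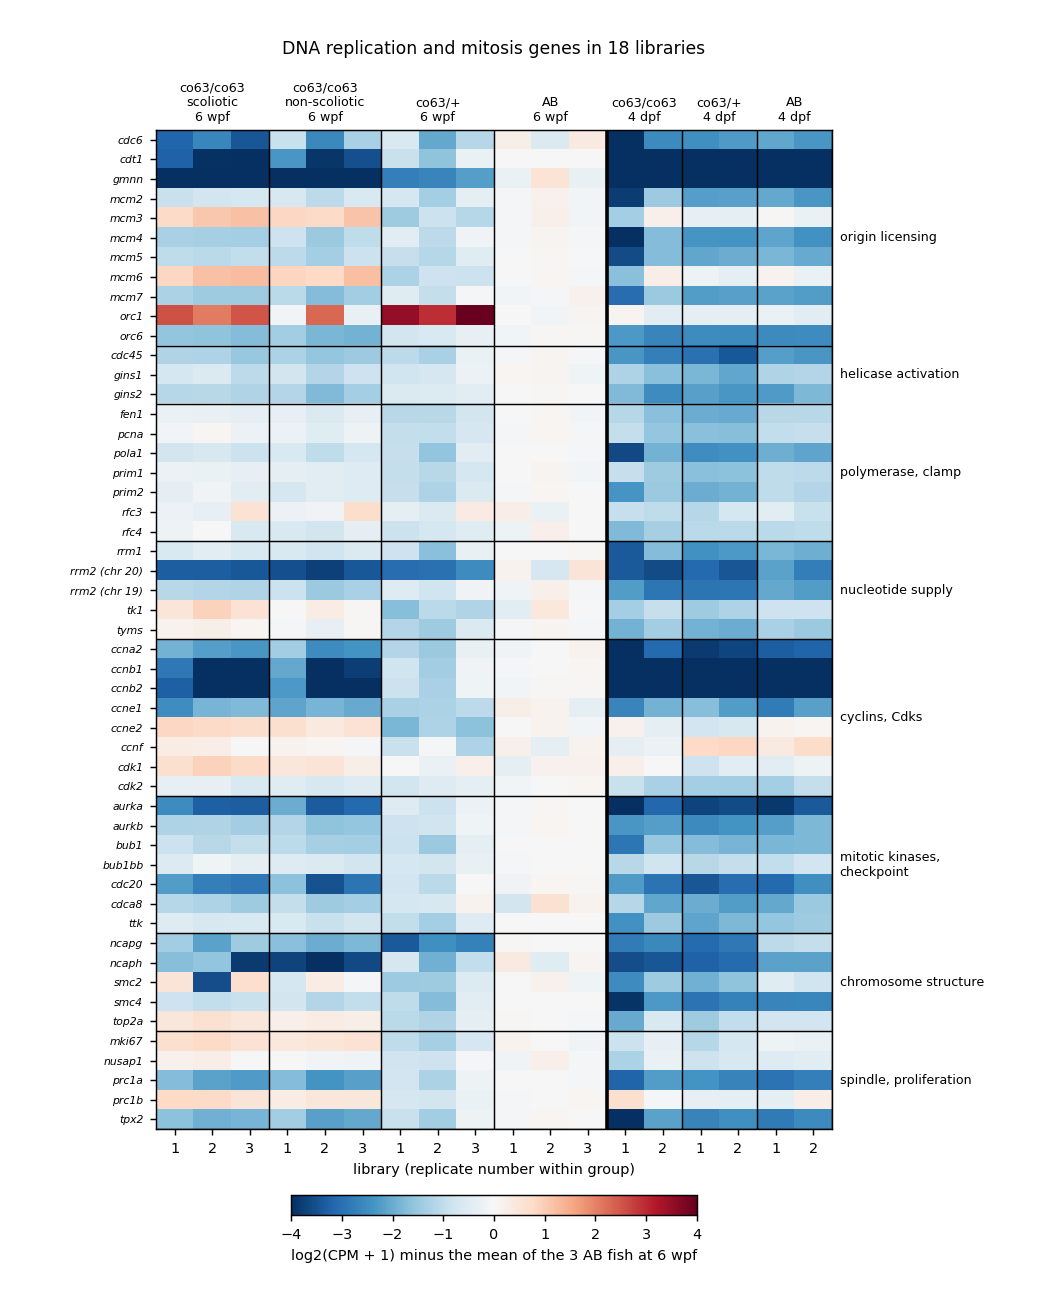
Level of 51 members (rows, grouped by role) in the 18 libraries (columns, numbered within each group), as log2(CPM + 1) minus the mean of the 3 AB fish at 6 wpf. Blue cells dominate the kif7co63/co63 fish in the rows of cdt1, gmnn, ccnb1 and ccnb2, while mcm3, mcm6 and mki67 are red in the same fish and blue in kif7co63/+ fish.

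Comparing homozygous with AB fish at 6 wpf asks how the cell-division genes stood in the mutants near the onset of curvature. In scoliotic kif7co63/co63 fish 35 of 51 members fell and 8 rose, with a median log2 fold change of −0.88 against 0.02 over all genes, where 42.1% of 22741 genes were called. In non-scoliotic kif7co63/co63 fish 37 of 51 fell and 5 rose, with a median of −1.01 against 0.04 over all genes and 43.1% of 22891 genes called. The deepest falls in scoliotic fish were in the licensing inhibitor geminin and the B cyclin ccnb2 (to 0.0223 and 0.0493 of the AB level), while the Mcm genes mcm3 and mcm6, cyclin E2, prc1b and the proliferation marker mki67 rose in both groups. Both comparisons share the AB fish and are not independent of each other.

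Among the origin licensing genes, 3 of 11 rose and 8 fell in scoliotic fish. The Mcm ring is built of equal numbers of Mcm2 to Mcm7, and its genes moved in opposite directions. The helicase subunit gene mcm3 had 81.7, 102 and 107 CPM in scoliotic and 84.7, 80.9 and 106 in non-scoliotic fish, against 44.5, 54.5 and 43.4 in AB fish, without overlap. It rose by a log2 fold change of 0.96 (SE 0.14, adjusted p = 0.00225, edgeR) in scoliotic and 0.88 (SE 0.14, adjusted p = 0.00254) in non-scoliotic fish. Its partner mcm6 had 97.4, 125 and 128 CPM in scoliotic and 99.6, 94.4 and 126 in non-scoliotic fish, against 54.9, 57.2 and 50.9 in AB fish. It rose by 1.04 (SE 0.13, adjusted p = 0.0011) and 0.93 (SE 0.12, adjusted p = 0.00142), again without overlap.

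The other ring genes fell. Levels of mcm5 were 101, 96.6 and 103 CPM in scoliotic and 99.0, 79.7 and 113 in non-scoliotic fish, against 202, 213 and 201 in AB fish, a log2 fold change of −1.1 in scoliotic fish (SE 0.079, adjusted p = 0.000181, edgeR). In scoliotic fish mcm2 changed by −0.86, mcm4 by −1.41 and mcm7 by −1.45 on the log2 scale, all called. The paralog mcm3l on chromosome 20, a gene outside the members that was chosen after its values were seen, had 8.86, 0 and 0.495 CPM in scoliotic and 12.8, 0.191 and 4.35 in non-scoliotic fish. It had 56.3, 36.8 and 55.9 CPM in kif7co63/+ and 75.5, 72.4 and 70.3 in AB fish, and at most 0.851 in embryo pools. Both mcm3l and the oocyte marker sums were lowest in fish 2 of each homozygous group, and the part of oocyte RNA in the Mcm values was not tested. The log2 fold change of mcm3l was −4.62 in scoliotic (adjusted p = 0.0339) and −3.70 in non-scoliotic fish (adjusted p = 0.0283), and the adjusted p was above 0.05 in both without any 1 AB fish (at most 0.0842) or without fish 3 of the homozygous group (0.0799 and 0.0913).

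**Figure D2:**
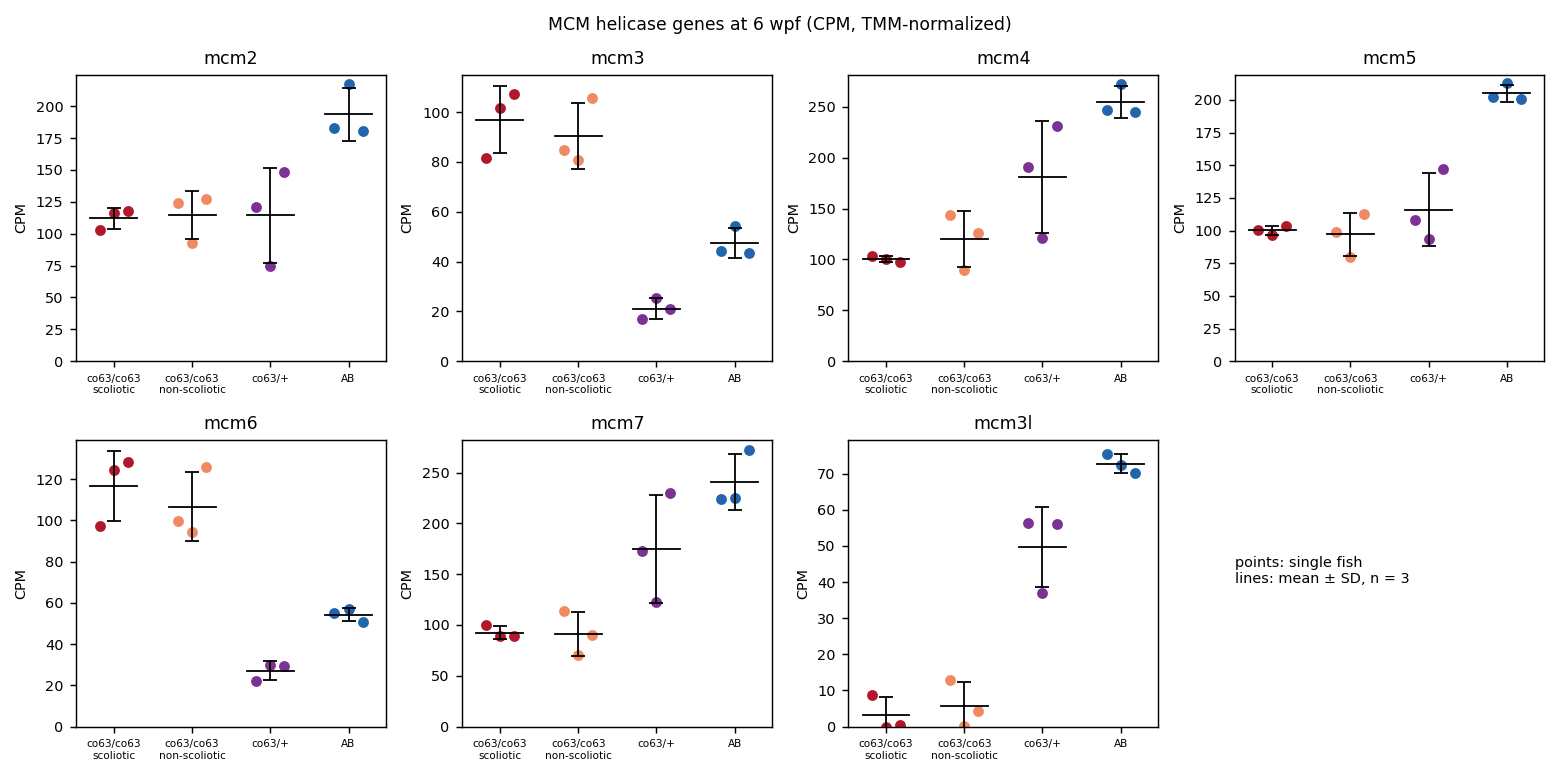
CPM (linear axes from 0) of the 6 genes of the Mcm ring and of the paralog mcm3l in single fish at 6 wpf (points), with mean ± SD of 3 fish per group. The kif7co63/co63 fish lie above AB fish for mcm3 and mcm6 and below them for mcm2, mcm4, mcm5 and mcm7.

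The loading inhibitor gmnn had 6.70, 4.29 and 3.11 CPM in scoliotic and 9.09, 2.76 and 3.52 in non-scoliotic fish, against 161, 282 and 159 in AB fish. Its log2 fold change was −5.49 (SE 0.39, adjusted p = 0.00018) in scoliotic and −5.33 (SE 0.55, adjusted p = 0.000686) in non-scoliotic fish. This was the largest fall of any member in scoliotic fish, and the groups were far apart.

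The loading factor cdt1 had 17.4, 10.3 and 10.0 CPM in scoliotic and 33.4, 10.8 and 14.2 in non-scoliotic fish, against 176, 173 and 169 in AB fish. Its log2 fold change was −3.85 (adjusted p = 0.000127) in scoliotic and −3.20 (adjusted p = 0.00139) in non-scoliotic fish. Its partner cdc6 had 1.33, 2.38 and 0.944 CPM in scoliotic and 10.1, 2.5 and 7.50 in non-scoliotic fish, against 23.2, 13.0 and 25.6 in AB fish. It fell by 3.80 on the log2 scale (adjusted p = 0.000731) in scoliotic fish. In non-scoliotic fish it fell by 1.67 (adjusted p = 0.0321), which rose above 0.05 without non-scoliotic fish 3 (0.077), AB fish 1 (0.089) or AB fish 3 (0.093).

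The origin recognition gene orc1 was uneven within groups. It had 6.73, 4.66 and 6.70 CPM in scoliotic fish, 0.225, 5.60 and 0.0926 in non-scoliotic fish, 14.3, 9.23 and 19.6 in kif7co63/+ fish and 0.329, 0.236 and 0.444 in AB fish. It was therefore present in all scoliotic and kif7co63/+ fish, in a single non-scoliotic fish, and near 0 in AB fish. Its rise in scoliotic fish, a log2 fold change of 4.08 (SE 0.33, adjusted p = 0.000232), was the largest of any member. In non-scoliotic fish the log2 fold change of 2.52 (adjusted p = 0.187) was not called, and it was −1.11 without fish 2. The subunit gene orc6 was even, with 15.7, 15.1 and 13.7 CPM in scoliotic and 17.7, 12.7 and 12.2 in non-scoliotic fish, against 45.1, 50.0 and 49.8 in AB fish.

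All 3 genes of helicase activation fell in scoliotic fish, cdc45 by a log2 fold change of −1.42, gins2 by −1.29 and gins1 by −0.88. The helicase cofactor cdc45 had 21.1, 20.8 and 16.7 CPM in scoliotic and 20.0, 16.5 and 17.5 in non-scoliotic fish, against 48.3, 54.0 and 47.6 in AB fish, and the groups were far apart. Of 7 polymerase and clamp genes, 4 fell in scoliotic and 6 in non-scoliotic fish, with none higher and with small changes. In scoliotic fish the prim2 call was lost in 5 of 6 omissions of 1 fish (adjusted p of 0.0509 to 0.0782) and the prim1 call in 2 (0.0511 and 0.0566). The sliding clamp pcna, a common marker of replicating cells, had 426, 483 and 394 CPM in scoliotic and 392, 330 and 400 in non-scoliotic fish, against 446, 486 and 448 in AB fish. The scoliotic and AB fish overlapped, and the log2 fold change of −0.15 (SE 0.10, adjusted p = 0.281, edgeR) was not called. The fall in non-scoliotic fish, −0.35 (adjusted p = 0.0338), was called in 6 of 13 alternative settings and in none that left out an AB fish. The catalytic subunit of the priming polymerase, pola1, had 60.6, 63.9 and 55.4 CPM in scoliotic and 65.3, 49.7 and 62.0 in non-scoliotic fish, against 102, 103 and 98.4 in AB fish. It fell by 0.82 on the log2 scale in scoliotic fish (adjusted p = 0.000475).

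Among the genes of nucleotide supply, the rrm2 locus on chromosome 19, the small subunit of ribonucleotide reductase, had 177, 171 and 168 CPM in scoliotic and 212, 138 and 155 in non-scoliotic fish, against 347, 447 and 369 in AB fish. It fell by 1.24 (SE 0.11, adjusted p = 0.000365) in scoliotic fish. The locus on chromosome 20 was lower throughout, with 1.17, 1.14 and 1.04 CPM in scoliotic and 0.866, 0.591 and 1.04 in non-scoliotic fish, against 22.4, 12.3 and 29.6 in AB fish, log2 fold changes of −4.33 and −4.74. Reads of such paralogs may be split by the counting, so the values of both loci are uncertain to that extent. The large subunit rrm1 fell by 0.63 in scoliotic fish. The salvage kinase tk1 had 45.1, 62.6 and 48.8 CPM in scoliotic fish, against 23.5, 43.9 and 32.5 in AB fish, a log2 fold change of 0.58 (adjusted p = 0.0907) that was not called. Thymidylate synthase, tyms, with 0.08 (adjusted p = 0.45), was not called either.

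The cyclins split like the Mcm genes. The mitotic cyclin ccnb1 had 67.2, 30.1 and 30.1 CPM in scoliotic and 118, 24.1 and 35.3 in non-scoliotic fish, against 465, 494 and 513 in AB fish. Its log2 fold change was −3.60 (SE 0.35, adjusted p = 0.000425) in scoliotic and −3.11 (SE 0.59, adjusted p = 0.00569) in non-scoliotic fish. The sister cyclin ccnb2 had 36.7, 8.74 and 10.9 CPM in scoliotic and 73.3, 5.43 and 11.2 in non-scoliotic fish, against 336, 372 and 377 in AB fish. Fish 1 of both homozygous groups was the highest of its group for both B cyclins, as it was for the oocyte marker sum.

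The log2 fold change of ccnb2 was −4.34 (adjusted p = 0.00155) in scoliotic and −3.64 (adjusted p = 0.0195) in non-scoliotic fish, and in the second group it was −5.51 when the fish with most oocyte marker RNA was left out and missed the threshold without fish 3 (adjusted p = 0.058). The S phase and mitotic cyclin ccna2 had 74.9, 60.5 and 55.3 CPM in scoliotic and 107, 48.4 and 53.1 in non-scoliotic fish, against 255, 288 and 310 in AB fish, a fall of 2.23 in scoliotic fish. Cyclin E opens S phase, and its genes ccne1 and ccne2 moved apart. The log2 fold change of ccne1 was −2.67 in scoliotic fish.

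In contrast, ccne2 had 28.5, 27.4 and 26.4 CPM in scoliotic and 25.2, 20.8 and 23.9 in non-scoliotic fish, against 15.4, 17.3 and 14.5 in AB fish. It rose by 0.73 (SE 0.096, adjusted p = 0.00136) in scoliotic and 0.52 (SE 0.11, adjusted p = 0.00911) in non-scoliotic fish. The mitotic kinase cdk1, the partner of the B cyclins, had 11.2, 14.0 and 12.4 CPM in scoliotic and 9.83, 10.3 and 8.26 in non-scoliotic fish, against 5.10, 7.95 and 7.98 in AB fish. It rose by 0.77 (SE 0.21, adjusted p = 0.0235) in scoliotic fish, with adjusted p = 0.054 without scoliotic fish 2 and 0.055 without scoliotic fish 3. The S phase kinase cdk2 fell by 0.50 in scoliotic fish.

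All 7 tested genes of mitotic kinases and checkpoint fell in both homozygous groups. The spindle pole kinase aurka fell most, by a log2 fold change of −3.12 in scoliotic fish, followed by cdc20, which activates the anaphase promoting complex, with −2.70. The chromosomal passenger genes aurkb and cdca8 changed by −1.37 and −1.46. The checkpoint kinase bub1 had 44.3, 37.4 and 41.4 CPM in scoliotic and 39.6, 32.1 and 31.6 in non-scoliotic fish, against 80.5, 82.1 and 83.4 in AB fish, a fall of 1.07 in scoliotic fish (SE 0.084, adjusted p = 0.000222). The fall of the checkpoint gene bub1bb, −0.44 (adjusted p = 0.0282), was small and was called in 7 of 13 alternative settings, and missed the threshold without any 1 AB fish, scoliotic fish 1 or scoliotic fish 3 (adjusted p of 0.0554 to 0.0854).

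Chromosome structure genes moved in both directions. The topoisomerase top2a, which untangles sister chromatids, had 173, 194 and 173 CPM in scoliotic and 147, 155 and 150 in non-scoliotic fish, against 130, 127 and 123 in AB fish, a rise of 0.44 in scoliotic fish (SE 0.087, adjusted p = 0.00736). The condensin gene smc2 had 64.5, 2.94 and 71.4 CPM in scoliotic and 27.1, 54.9 and 41.8 in non-scoliotic fish, against 44.3, 50.9 and 39.4 in AB fish. A single scoliotic fish, fish 2, was thus far below the others, and the groups overlapped. The log2 fold change of smc2 was −0.02 (SE 0.90, adjusted p = 0.985), and without that fish it was 0.53 and was called (adjusted p = 0.0178).

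The condensin subunit ncaph was also split, with 4.95, 5.50 and 0.354 CPM in scoliotic and 0.481, 0.133 and 0.579 in non-scoliotic fish, against 23.8, 12.9 and 19.8 in AB fish. It fell by 5.62 (SE 0.49, adjusted p = 0.000448) in non-scoliotic fish, the largest fall of any member there, and by 2.46 (SE 0.80, adjusted p = 0.0468) in scoliotic fish, where the adjusted p passed 0.05 without any 1 of the AB fish or without scoliotic fish 1. Its partner ncapg was even, with 13.5, 7.60 and 13.3 CPM in scoliotic and 11.0, 8.63 and 9.88 in non-scoliotic fish, against 37.8, 36.4 and 36.7 in AB fish. The core subunit smc4 fell by 0.97 in scoliotic fish.

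Of the spindle and proliferation genes, mki67, which coats mitotic chromosomes and marks cycling cells, had 254, 274 and 239 CPM in scoliotic and 215, 223 and 241 in non-scoliotic fish, against 178, 159 and 147 in AB fish. It rose by 0.59 (SE 0.11, adjusted p = 0.0052) in scoliotic and by 0.44 (SE 0.11, adjusted p = 0.0151) in non-scoliotic fish, where the adjusted p was 0.059 without non-scoliotic fish 3 and 0.061 without AB fish 3. The midzone paralogs prc1a and prc1b went opposite ways, with log2 fold changes of −2.15 and 0.68 in scoliotic fish. In non-scoliotic fish the prc1b call was lost without fish 2, fish 3, AB fish 1 or AB fish 2 (adjusted p of 0.0572 to 0.0742). The spindle assembly factor tpx2 fell by 1.90. The groups of members that rose and fell thus cut across the phases of the cycle.

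**Figure D3:**
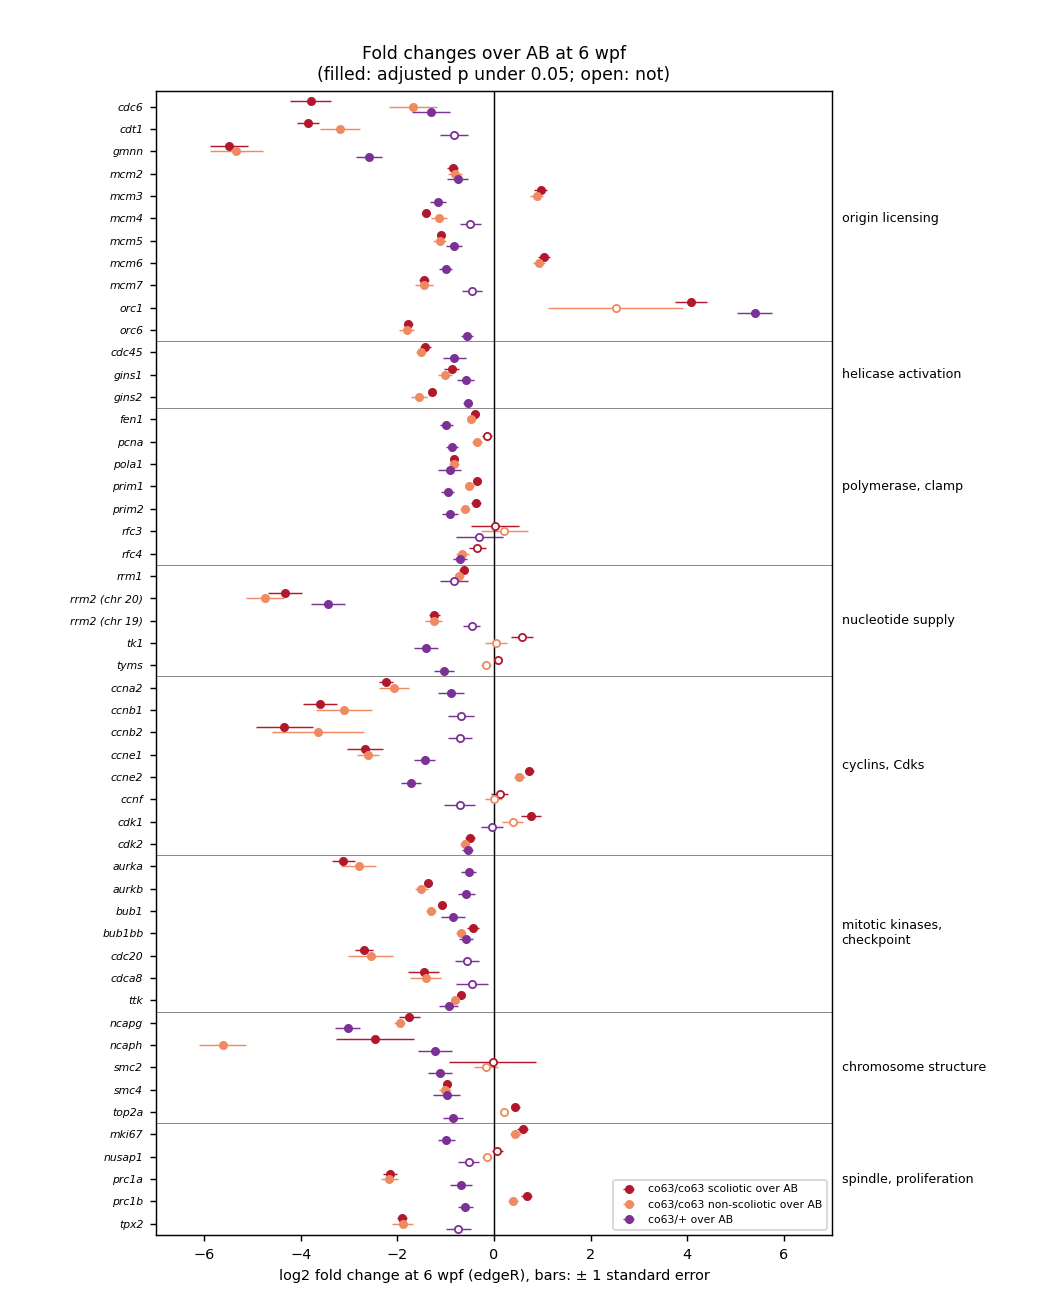
Log2 fold change over AB at 6 wpf (x axis) of 51 members (rows, by role) in scoliotic, non-scoliotic and kif7co63/+ fish, with bars of ± 1 standard error and filled points for adjusted p under 0.05 (edgeR). The homozygous groups lie close together in most rows, to the right of 0 for mcm3, mcm6, ccne2, mki67 and prc1b, where kif7co63/+ fish lie to the left.

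The level of some fallen members, ccnb1, ccnb2 and cdt1 among them, moved with the oocyte marker sum among the homozygous fish. Others did not. Scoliotic fish 2, with the lowest sum, had the highest ncaph of the 6 homozygous fish (5.50 CPM) and the highest cdc6 of its group (2.38 CPM). Non-scoliotic fish 1, with 1776 CPM of oocyte markers, was the highest of the 6 homozygous fish in 18 of 51 members, ccnb1, ccnb2, cdt1, gmnn, aurka and cdc20 among them. Non-scoliotic fish 2, with 3.55 CPM, was the lowest in 32. Scoliotic fish 2, with 3.50 CPM, was the highest in 15, tk1, pcna and mki67 among them, and the lowest in 3. Levels of mcm3, mcm6, ccne2 and mki67 were above every AB fish in all 6 homozygous fish, that fish among them. The counts of highest and lowest fish were not made over all genes, so whether they are particular to the members is not known. The part of oocyte RNA in these levels was not tested.

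Some other cell type markers moved too, while intestine and lymphocyte sums of homozygous fish overlapped those of AB fish. Intestine markers summed to 5125 to 5497 CPM in scoliotic, 4771 to 5965 in non-scoliotic, 4003 to 4884 in kif7co63/+ and 5297 to 5793 in AB fish. The lymphocyte sums were 146.6 to 240.5, 199.9 to 242.6, 123.6 to 162.9 and 164.2 to 229.4 CPM in the same order. Skeletal muscle markers summed to 37110 to 45090 CPM in scoliotic and 38940 to 45220 in non-scoliotic fish, 31470 to 36570 in kif7co63/+ and 20540 to 23240 in AB fish, and 12 of 15 were called higher in scoliotic fish. Over all genes tested, 19.2% rose in scoliotic over AB fish. Erythroid markers summed to 4811 to 5775 CPM in scoliotic, 5270 to 6160 in non-scoliotic, 2292 to 3524 in kif7co63/+ and 2123 to 3583 in AB fish, and neural progenitor markers to 473 to 580, 409 to 516, 331 to 338 and 312 to 347 CPM in the same order of groups. Much of the neural progenitor sum was the single gene fabp7a, with 271.9 to 318.2 CPM in scoliotic and 151.6 to 164.6 in AB fish. The part of each of these cell types in the changes of the members was not tested.

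**Figure D4:**
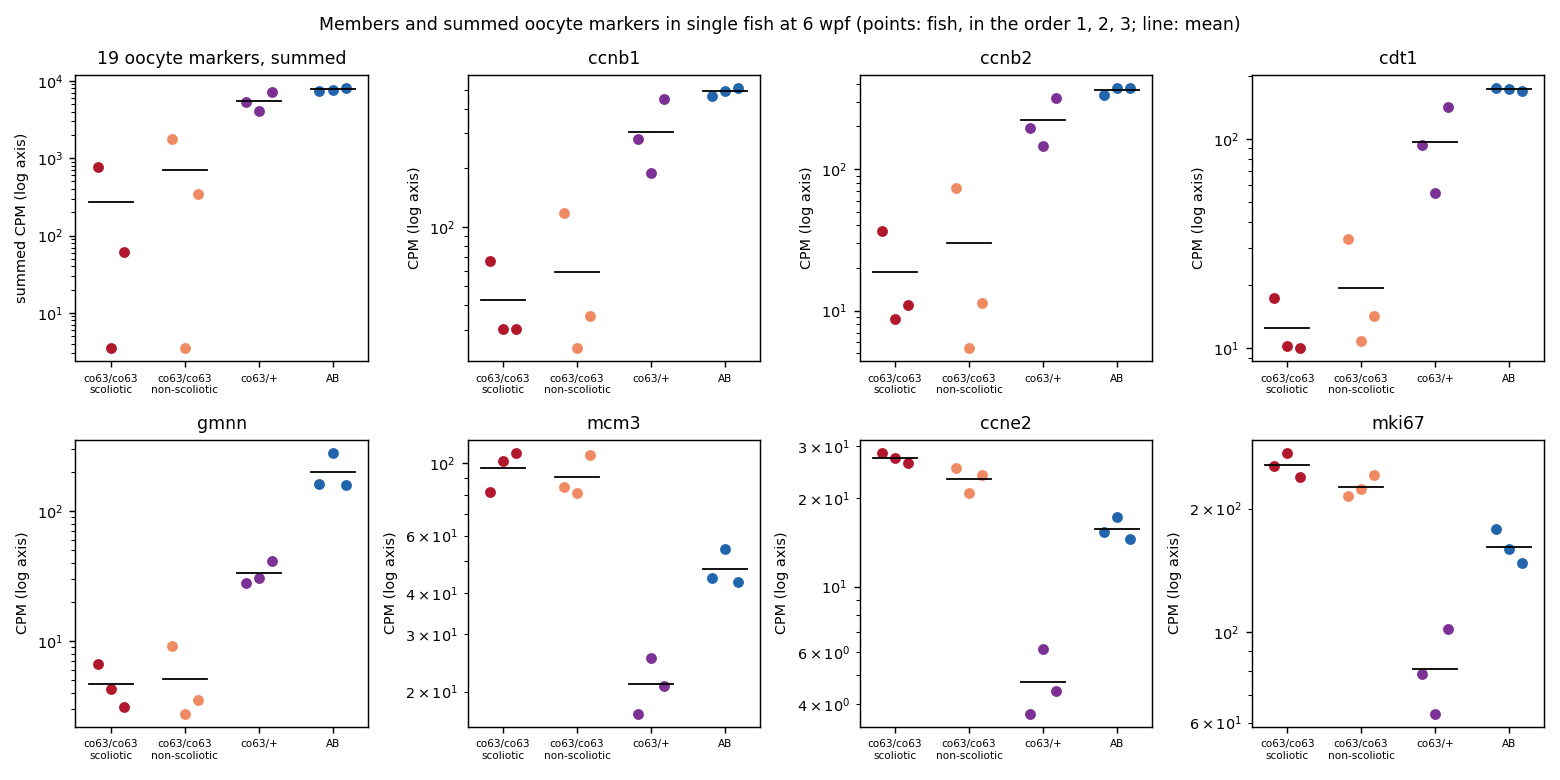
Sum of 19 oocyte markers and CPM of 7 members in single fish at 6 wpf (points, in the order 1, 2, 3; line, group mean; log axes). The order of the homozygous fish for ccnb1, ccnb2 and cdt1 is close to that of the oocyte sum, while mcm3, ccne2 and mki67 are above AB in all 6 homozygous fish.

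The comparison of kif7co63/+ with AB fish asks what a single mutant copy went with. Here 36 of 51 members fell and only orc1 rose, with a median log2 fold change of −0.82 against 0.03 over all genes, where 36.2% of 23075 genes were called. Leaving out kif7co63/+ fish 1 or AB fish 1 left 24 calls among the members. The calls over all genes went from 8352 to 5195 and 5917 in these fits. Of the 37 member calls, 22 held in every omission of 1 fish. The genes that had risen in homozygous fish were lower than AB in kif7co63/+ fish, except orc1 and cdk1.

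Values of mcm3 were 17.1, 25.4 and 20.9 CPM in kif7co63/+ fish, against the 43.4 to 54.5 of AB fish, a log2 fold change of −1.16 (SE 0.16, adjusted p = 0.00122). Levels of ccne2 were 3.71, 6.17 and 4.41 CPM, against 14.5 to 17.3 in AB fish, a change of −1.72 (adjusted p = 0.000545), and mki67 had 78.8, 63.1 and 102 CPM, against 147 to 178, a change of −0.99 (adjusted p = 0.00378). The clamp pcna had 239, 230 and 286 CPM, against 446 to 486, a change of −0.87 (SE 0.12, adjusted p = 0.00116). These genes did not overlap between the groups.

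The largest fall among called members was in the rrm2 locus on chromosome 20, −3.44 (adjusted p = 0.000319), with 1.54, 1.68 and 2.68 CPM in kif7co63/+ fish, against 12.3 to 29.6 in AB fish. The condensin gene ncapg followed with −3.03 (SE 0.25, adjusted p = 0.000124), at 2.68, 5.97 and 4.85 CPM against 36.4 to 37.8, and gmnn with −2.59 (adjusted p = 0.000288), at 28.0, 30.4 and 41.6 CPM against 159 to 282. The rise of orc1 had a log2 fold change of 5.40 (SE 0.36, adjusted p = 4.08e-05). The salvage kinase tk1, with 9.31, 14.8 and 13.4 CPM against 23.5 to 43.9, fell by 1.41 (adjusted p = 0.00349).

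Several genes that fell deeply in homozygous fish were closer to AB in kif7co63/+ fish. The B cyclins were not called. The B cyclin ccnb1 had 279, 188 and 447 CPM and ccnb2 had 197, 146 and 318 CPM in kif7co63/+ fish, each with its highest value in fish 3, which also had the highest oocyte marker sum of its group. Fish 3 was also highest and fish 2 lowest for pcna, mki67 and the summed CPM of all members (3204, 2505 and 4585 in fish 1, 2 and 3). The order was thus not particular to the B cyclins, and the part of oocyte RNA in it was not tested. The cyclin ccna2 had 126, 100 and 232 CPM and bub1 had 45.1, 28.4 and 63.3 CPM, with fish 2 lowest, the fish with the lowest oocyte sum, and they fell by 0.89 (adjusted p = 0.0366) and 0.84 (adjusted p = 0.0281) on the log2 scale, calls that were lost without some single fish (adjusted p up to 0.125 and 0.085). Within this group 16 of 51 members spanned more than 2-fold between fish, on values with 1 CPM added, against 2 in AB fish.

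Scoliotic and kif7co63/+ fish differed in both directions, with 14 of 51 members higher and 19 lower, a median log2 fold change of −0.03 against −0.02 over all genes, and 36.9% of 22756 genes called. Higher in scoliotic fish were ccne2 by 2.52 (SE 0.21, adjusted p = 0.000497), the largest rise, mcm3 by 2.2, mcm6 by 2.1, tk1 by 2.06, mki67 by 1.65, top2a by 1.36 and pcna by 0.79, all on the log2 scale. Lower were ccnb2 by −3.56 (SE 0.62, adjusted p = 0.00521), the largest fall, cdt1 by −2.95, ccnb1 by −2.85, gmnn by −2.83, aurka by −2.53, cdc20 by −2.07 and orc1 by −1.25. All of the polymerase and clamp genes that were called, 4 of 7, were higher in scoliotic fish, and the called mitotic kinase and checkpoint genes, 4 of 7, were lower.

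Non-scoliotic and kif7co63/+ fish showed 12 of 51 members higher and 17 lower, a median of −0.07 against −0.03 over all genes, and 36.6% of 22800 genes called. The largest rise was again ccne2, 2.28 (SE 0.21, adjusted p = 0.000568), and the largest fall was ncaph, −4.35 (SE 0.59, adjusted p = 0.00202), with 0.481, 0.133 and 0.579 CPM in non-scoliotic fish, against 11.2, 4.08 and 8.83 in kif7co63/+ fish. The count dropped to 16 without non-scoliotic fish 3 and to 18 without kif7co63/+ fish 1, where calls over all genes went from 8348 to 6328 and 5296. Of 18 oocyte markers tested, 6 were called lower in scoliotic and 1 in non-scoliotic than in kif7co63/+ fish, where 18.5% and 17.9% of all genes were lower.

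Scoliotic and non-scoliotic kif7co63/co63 fish share the genotype and differ in curvature. No member was called by edgeR, the median log2 fold change was 0.14 against 0.00 over all genes, and 0.38% of 22087 genes were called. At an unadjusted p under 0.05 the count was 8 of 51, against 1435 of 22087 over all genes. DESeq2 called cdc6 and ncaph, 1 in each direction, and 420 of 24784 over all genes. Without non-scoliotic fish 2, edgeR called 1 member, and 78 of 22516 over all genes. The log2 fold change of cdc6 was −2.09 (SE 0.58, edgeR adjusted p = 0.476), with 0.944 to 2.38 CPM in scoliotic fish, against 2.5 to 10.1 in non-scoliotic fish. For ncaph it was 3.19 (SE 1.0, adjusted p = 0.594), resting on scoliotic fish 1 and 2. Outside the members, the replication gene lig1 was called lower in scoliotic than in non-scoliotic fish. Its log2 fold change was −2.14 (SE 0.22, adjusted p = 0.0183, edgeR), and the paper also lists it among its top downregulated genes. Both groups also had uneven members of their own, orc1 among the non-scoliotic and smc2 among the scoliotic fish. With 3 fish against 3, an absence of calls does not show that the groups had equal levels.

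Other genes of the same pathways were counted from lists chosen by function. Over all genes tested, 23.0% fell and 19.2% rose in scoliotic, 21.9% fell and 21.2% rose in non-scoliotic and 17.6% fell and 18.6% rose in kif7co63/+ fish over AB. Of 44 further replication genes tested, 27 fell and none rose in scoliotic fish over AB, with the largest falls in the methyltransferase dnmt1 (−2.39) and the replication factor mcm10 (−2.32), and 29 fell and none rose in non-scoliotic fish. In kif7co63/+ fish 35 of 44 fell and none rose, with the largest fall in the repair factor tonsl, which had 2, 7 and 7 reads in kif7co63/+ fish. Of further mitosis genes, 37 of 53 fell and 5 rose in scoliotic fish, 38 fell and 4 rose in non-scoliotic fish, and 40 of 54 fell in kif7co63/+ fish. The largest fitted falls in both homozygous groups were in securin, pttg1, and the kinetochore gene knl1, which were so near 0 that reads are given in place of a fold. Securin had 0, 1 and 1 reads in scoliotic and 0, 0 and 1 in non-scoliotic fish, against 1087, 246 and 575 in AB fish. Reads of knl1 were 1, 2 and 0 in scoliotic and 9, 1 and 2 in non-scoliotic fish, against 690, 273 and 1202 in AB fish. The kinetochore gene cenpf rose by 2.23 in scoliotic and 2.18 in non-scoliotic fish. These falls stood beside the low oocyte marker sums given above, whose part was not tested.

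Genes that control entry into S phase changed in both directions. In scoliotic fish 13 of 37 rose and 9 fell, where 19.2% of all genes rose and 23.0% fell, among them e2f7 (1.06), a repressor of E2F targets, and the Cdk inhibitor cdkn1d (1.1) upward, and e2f5 (−4.46) and cyclin D3, ccnd3 (−3.74), downward. In kif7co63/+ fish 8 of 37 rose and 18 fell, where 18.6% of all genes rose and 17.6% fell, with the p53 target and Cdk inhibitor cdkn1a at 2.33 and mycb at 1.28 as the largest rises. The repressor e2f8 (−1.55) and the activator mybl2b (−1.41) had the largest falls there.

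At 4 dpf the pair of kif7co63/co63 pools differed from each other in many members, so each result is given with that in view. In pool 1, 19 of 50 members were below 50% of their level in pool 2 and none was above 200%, on values with 1 CPM added. The helicase gene mcm4 had 13.4 CPM in pool 1 and 75.0 in pool 2, pola1 7.45 and 26.6, tpx2 13.0 and 48.7, and top2a 30.4 and 83.0. Pool 1 was below all 5 other pools for 26 members and above all of them for 9, pcna not among them, with 237 CPM against 156 in pool 2. The pair also differed over all genes, by a chi-square of 479 per gene. Counts like those of the members were not made there, so whether they are particular to the members is not known. Marker sums also set pool 1 apart. Intestine markers (759 CPM against 1245 in pool 2) and lymphocyte markers (48.2 against 163, mostly from tox with 37.1 against 143.7) were lowest of the 6 pools in pool 1. Erythroid (613 against 436) and neural progenitor markers (1009 against 788) were highest there. The higher neural progenitor sum came from fabp7a, with 610 CPM in pool 1 and 281 in pool 2. Skeletal muscle markers summed to 33960 CPM in pool 1, within the 25080 to 40710 of the other pools, and moved in both directions. The muscle gene atp2a1 had 626 CPM in pool 1 and 8144 in pool 2, while pvalb1 had 18060 and 8533. The part of these cell types was not tested.

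**Figure D5:**
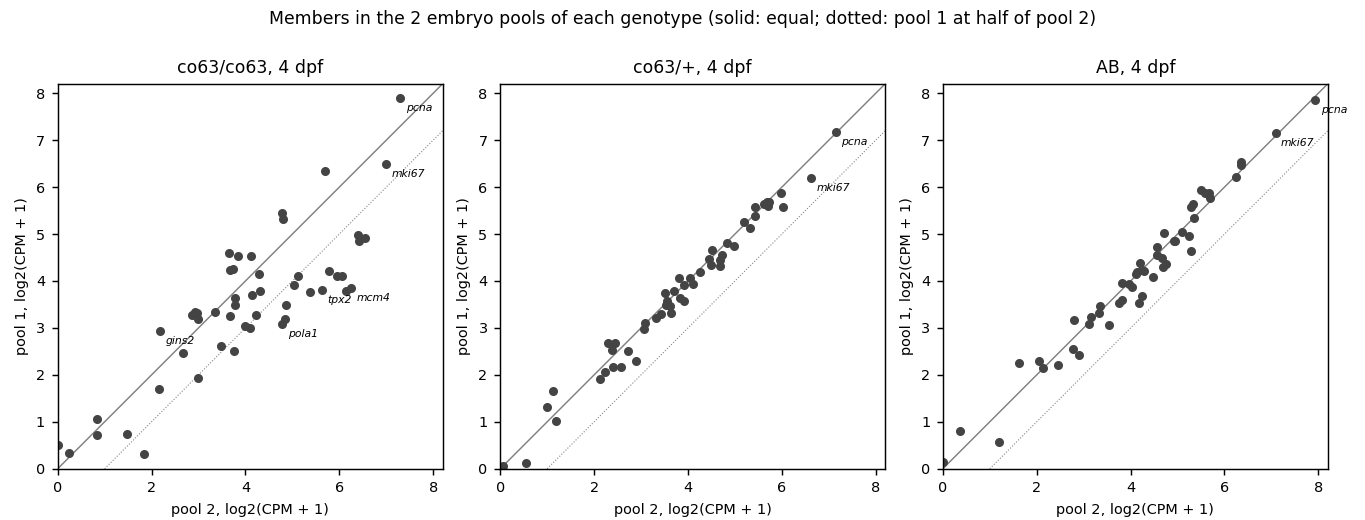
Level of each tested member in pool 1 (y axis) against pool 2 (x axis) of the 3 genotypes at 4 dpf, both as log2(CPM + 1). Points lie along the solid line of equal levels in kif7co63/+ and AB pools, and 19 kif7co63/co63 points lie at or under the dotted line of a 2-fold difference.

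Between kif7co63/co63 and AB pools no member was called by edgeR, the median log2 fold change was −0.29 against 0.02 over all genes, and 0.509% of 22396 genes were called. At an unadjusted p under 0.05 the count was 5 of 50, against 1567 of 22396 over all genes. DESeq2 called 2 members lower, ncapg and ncaph, and 639 of 23755 over all genes. With pool 1 or pool 2 left out, the lone pool was assumed to vary like the AB pools. Calls over all genes changed widely in those fits, so no counts are given. The condensin gene ncapg had 4.48 and 5.34 CPM in kif7co63/co63 pools, against 17.5 and 18.5 in AB pools, and its log2 fold change was −1.88 (SE 0.35, adjusted p = 0.0868). It was −1.75 without pool 1 and −2.02 without pool 2. For ncaph the values were 0.654 and 0.791 CPM in kif7co63/co63 pools, against 3.41 and 3.40 in AB pools.

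Between kif7co63/+ and AB pools 8 of 50 members fell and none rose, with a median of −0.35 against −0.01 over all genes and 6.21% of 22248 genes called. The deepest fall was in the condensin gene ncapg, with 3.50 and 4.28 CPM in kif7co63/+ pools, against 17.5 and 18.5 in AB pools (−2.16, SE 0.21, adjusted p = 0.00205). The other called members were ncaph, smc2, prim2, fen1, ccne2, pcna and the rrm2 locus on chromosome 19, with log2 fold changes of −0.69 to −1.50. The condensin core gene smc4 was not called (−0.17, adjusted p = 0.571). Without either 1 of the kif7co63/+ pools 1 member was called, without AB pool 1 or 2 the counts were 13 and 17, and a fit of all 6 pools called none. In kif7co63/+ pools pcna had 143 and 142 CPM, against 231 and 244 in AB pools.

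Between kif7co63/co63 and kif7co63/+ pools no member was called by edgeR or DESeq2, the median was −0.03 against −0.03 over all genes, and 0.0358% of 22349 genes were called. At an unadjusted p under 0.05 the count was 1 of 50, against 1173 of 22349 over all genes. Leaving out a kif7co63/co63 pool left 1 in that group and changed the calls over all genes widely, so no counts are given. Of the members described at 6 wpf, mcm5 had 16.2 and 60.4 CPM in kif7co63/co63, 47.5 and 51.1 in kif7co63/+ and 57.7 and 49.8 in AB pools. Likewise cdk1 had 8.14 and 6.92, 3.46 and 4.94, and 4.84 and 5.86 CPM in the same order, and bub1 had 10.2 and 28.2, 24.2 and 21.8, and 22.4 and 22.7 CPM.

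The comparison of ages sets whole juveniles against whole embryos. In AB 42 of 51 members were higher at 6 wpf than at 4 dpf and none lower, with a median of 1.92 against 0.00 over all genes and 58.6% of 23474 genes called. The largest rise was ccnb2, 336, 372 and 377 CPM at 6 wpf against 3.60 and 4.48 CPM at 4 dpf, 6.50 on the log2 scale (SE 0.18, adjusted p = 2.22e-07). Others were cdt1 by 4.65, gmnn by 4.63 and ccnb1 by 4.43. In contrast, mki67 had 178, 159 and 147 CPM at 6 wpf, against 141 and 135 CPM at 4 dpf, and was not called (0.24, adjusted p = 0.134). All 18 oocyte markers tested were higher at 6 wpf in AB, and 19 of 21 neural progenitor markers were lower, where 30.3% of all genes were higher and 28.2% lower.

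In kif7co63/+ zebrafish 38 of 51 members were higher at 6 wpf and 4 were lower, with a median of 1.44 against 0.01 over all genes and 53.8% of 23445 genes called. The largest fitted rise was in orc1, with 14.3, 9.23 and 19.6 CPM at 6 wpf, against 0.0364 and 0.0378 at 4 dpf, where a pool held 2 reads, so that no fold is given. The 4 lower members were ccnf (−1.54, adjusted p = 0.00373), ccne2 (−0.97), mcm3 (−0.79) and mcm6 (−0.71). The adjusted p was 0.0653 for ccne2 without kif7co63/+ pool 2 and 0.0542 for mcm6 without pool 1. The cyclin F gene ccnf had 7.67, 14.4 and 5.90 CPM at 6 wpf, against 26.9 and 27.5 CPM at 4 dpf. The B cyclin ccnb2 rose by 6.00.

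In homozygous zebrafish 21 of 51 members were higher in scoliotic fish at 6 wpf than in kif7co63/co63 pools, none lower, with a median of 1.23 against −0.01 over all genes and 19.0% of 22811 genes called. For non-scoliotic fish the count was 13, none lower, with a median of 1.01 against −0.05 and 23.0% of 22907 genes called. Both counts depended on single libraries, as did the calls over all genes. Leaving out any 1 fish gave 2 to 5 members for the scoliotic and 0 to 2 for the non-scoliotic group. Over all genes, 1110 to 2615 and 2205 to 2798 were then called, against 4342 and 5269 with every library. Omitting a kif7co63/co63 pool left 1 pool in that group, so no count is given. A fit of all 18 libraries called 36 and 33. Among called members the clamp loader gene rfc3 had the second largest rise in scoliotic fish, after orc1, and the largest in non-scoliotic fish, with 1.03, 0.902 and 2.57 CPM in scoliotic and 1.04, 1.14 and 2.92 in non-scoliotic fish, against 0.269 and 0.176 CPM in the pools. Its log2 fold changes of 2.80 (adjusted p = 0.0481) and 2.90 (adjusted p = 0.0357) were called in 4 of 11 and 6 of 12 alternative settings, and in none that left out a single fish or pool.

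Whether the difference between genotype groups depended on age was tested as a contrast in a fit of all 18 libraries. In homozygotes it set fish chosen as scoliotic against embryo pools not sorted by later curvature, so age and that choice cannot be told apart. A contrast with the non-scoliotic fish was not run. For homozygotes, the scoliotic effect at 6 wpf minus the effect at 4 dpf was lower than 0 in 13 and higher in 2 of 51 members, with a median of −0.48 against 0.03 over all genes and 13.9% of 24687 genes called. The largest difference was in gmnn, −5.58 (SE 0.64, adjusted p = 0.000369), where the level was 3.11 to 6.70 CPM in scoliotic fish, against 159 to 282 in AB fish at 6 wpf, and 9.08 and 9.21 CPM in kif7co63/co63 pools, against 8.37 and 7.96 in AB pools at 4 dpf. Next were ccnb2 with −3.76 and cdt1 with −3.28. Of the 15 calls, 6 held whenever 1 library was left out, those of gmnn, cdt1, aurka, prc1a, orc6 and the rrm2 locus on chromosome 20. Of 10 omissions, 9 ended the call of ccnb2 (adjusted p of 0.0519 to 0.174), 8 each those of ccna2 and gins2, 5 that of ccnb1, 4 that of aurkb and 1 each those of cdc20 and ccne1, and gins2 had −0.60 without kif7co63/co63 pool 1. The 2 members above 0 were mki67 with 1.01 (adjusted p = 0.0341) and ccne2 with 1.01 (adjusted p = 0.0322), and leaving out 1 library ended the call in 7 of 10 cases for mki67 and 8 of 10 for ccne2. The count of members called was 9 without scoliotic fish 3 or AB fish 3 and 6 without AB pool 1.

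For heterozygotes 2 of 51 members were below 0 and none above, with a median of −0.43 against 0.05 over all genes and 7.46% of 24687 genes called. They were the rrm2 locus on chromosome 20, −2.18 (SE 0.55, adjusted p = 0.0244), and ccne1, −2.37 (SE 0.68, adjusted p = 0.0457). Both calls depended on single libraries, the first on each of 6 libraries (adjusted p of 0.053 to 0.14 without 1 of them) and the second on each of 9 (0.0533 to 0.23). A difference between age effects in homozygotes and heterozygotes was not tested.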

How the data were processed

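The libraries came from 12 fish of 6 wpf, sequenced singly, and from 6 pools of 20 embryos of 4 dpf. The authors deposited raw read counts per gene, made per their processing notes with fastp, HISAT2, StringTie and featureCounts on GRCz11 (versions and strand setting not given in the sources used here). A second deposited table of the authors' own scoliotic against kif7co63/+ comparison holds fold changes, p-values and copies of these counts, and was not used.

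Counts were compared with edgeR 4.0.16 (R 4.3.3, limma 3.58.1): filterByExpr (minimum count 10, minimum total 15), TMM, glmQLFit and glmQLFTest on the groups compared, with Benjamini-Hochberg adjustment over all genes tested and a threshold of 0.05. The 2 age contrasts were fitted on all 18 libraries. Standard errors were the log2 fold change divided by the square root of F. Levels are TMM-scaled CPM, and 1 CPM was added before taking log2. The scripts were tested on simulated data. Tables and plots used Python 3.11.15, numpy 2.4.6, pandas 2.3.3 and matplotlib 3.10.9. Intervals from counting alone were not used, since replicate spread exceeded them. The p-values compare a group difference with the spread between these fish or pools, which edgeR estimated with information shared over genes.

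Groups came from the sample labels. The alternatives were RLE scaling, library totals, DESeq2 1.42.0, other filters, a fit of all libraries of the ages compared, CPM per kb, a block on replicate number, and omission of every library in turn. The members and lists were chosen with earlier results of these data known. Full values were given for 1 or more genes per role and for the called members with the largest rise and fall in each comparison, and other members where their values bear on a pattern were chosen after their values were seen. Of the other lists, the genes with the largest called rise and fall were named.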

Additional observations from a re-analysis of the deposited data

Results flagged for a closer look

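The difference between genotype effects at 6 wpf and 4 dpf was tested in one fit of all libraries with edgeR, and for homozygotes (scoliotic fish at 6 wpf) 15 members had an adjusted p under 0.05. The effect was lower at 6 wpf, as differences of log2 fold changes, for gmnn by −5.58, ccnb2 by −3.76, cdt1 by −3.28, ccnb1 by −3.18, ccne1 by −3.08, aurka by −2.99, cdc20 by −2.79, the rrm2 locus on chromosome 20 by −2.60, prc1a by −2.28, ccna2 by −1.82, orc6 by −1.77, gins2 by −1.13 and aurkb by −0.99. It was higher for mki67 and ccne2, each by 1.01. Of these 15, 6 (gmnn, cdt1, aurka, prc1a, orc6 and the rrm2 locus on chromosome 20) held whenever 1 library was left out, and ccnb2 lost its call in 9, ccna2, gins2 and ccne2 in 8 and mki67 in 7 of 10 omissions. For heterozygotes 2 members passed, the rrm2 locus on chromosome 20 with −2.18 and ccne1 with −2.37. The oocyte marker sum also differed between genotypes at 6 wpf and not at 4 dpf (4.99 to 9.30 CPM in every pool), and its part in these differences was not tested.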

How the results depend on the processing

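The counts of members called in scoliotic and non-scoliotic over AB fish stayed within 1.5 times under every alternative run, with 39 to 43 and 38 to 41 when 1 library was left out. Leaving out 1 library gave 24 to 46 calls for kif7co63/+ over AB fish, 25 to 32 for scoliotic and 16 to 29 for non-scoliotic over kif7co63/+ fish, and 0 to 1 between scoliotic and non-scoliotic fish, where DESeq2 gave 2. At 4 dpf the ranges were 0 to 19 for kif7co63/co63 over AB pools, 1 to 17 for kif7co63/+ over AB pools and 0 to 34 between the mutant genotypes. For kif7co63/co63 over AB pools, DESeq2 and no filter gave 2 and the fit of all pools gave 1, and for kif7co63/+ over AB pools that fit gave 0. Between ages the ranges were 41 to 44 in AB, 33 to 43 in kif7co63/+, 2 to 34 for scoliotic and 0 to 30 for non-scoliotic fish over kif7co63/co63 pools. In these last comparisons library totals gave 10 and 6 and the fit of all libraries 36 and 33, and DESeq2 gave 28 in the non-scoliotic one. For the age contrasts the ranges were 6 to 21 in homozygotes and 0 to 2 in heterozygotes, where DESeq2 gave 4 and a fit of the contrast's groups alone 6. Calls that held in every omission of 1 library numbered 38 of 43 in scoliotic, 37 of 42 in non-scoliotic and 22 of 37 in kif7co63/+ over AB fish, 23 of 33 and 15 of 29 in scoliotic and non-scoliotic over kif7co63/+ fish, and 1 of 8 in kif7co63/+ over AB pools. The causes were not tested.

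Replicate numbers were not treated as pairs in the main tests. Deviations of equal numbers correlated at −0.127 to 0.436, over 0.1 in no full set of pairs. Between scoliotic and non-scoliotic fish the correlations were 0.436 and 0.293 for numbers 1 and 2, and 0.0378 for number 3. At 4 dpf, with 2 pools per group, both pairs give the same correlation, so the check cannot decide there. With the replicate block the counts were 1 for kif7co63/co63 and 5 for kif7co63/+ over AB pools, and 8 and 5 for scoliotic and non-scoliotic fish over kif7co63/co63 pools. A crossed block for kif7co63/co63 over AB pools, chosen after seeing the data, gave 2.

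The mean of log2(CPM + 1) over members, 1.69 higher at 6 wpf than at 4 dpf in AB, was 1.76 with RLE scaling, 1.54 with library totals and 1.58 per kb. With library totals the median log2 fold change of all genes between ages was as low as −0.38, in non-scoliotic fish over kif7co63/co63 pools, against −0.054 with TMM. Of single genes, smc2 in scoliotic over AB fish had a log2 fold change of −0.02 and of 0.057 in the fit of all fish, and −0.48 to 0.53 when 1 library was left out (0.53 without scoliotic fish 2, 0.071 without AB fish 2). For orc1 in non-scoliotic over AB fish, 2.52 became −1.11 to 3.03, the lowest without fish 2.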

Other observations

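Reads of the mitosis genes pttg1 and knl1, which are not members and were chosen after their values were seen, were also low in homozygous embryos. Securin, pttg1, had 2 and 1 reads in kif7co63/co63 and 33 and 46 in kif7co63/+ pools, against 193 and 34 in AB pools. The kinetochore gene knl1 had 2 and 5 reads in kif7co63/co63 and 85 and 147 in kif7co63/+ pools, against 377 and 257 in AB pools. It was the only gene of its list called between kif7co63/co63 and AB pools (adjusted p = 0.0129, edgeR). The oocyte marker sum was at most 9.30 CPM in every pool, and the cause of these low reads was not tested.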
